A study of Rattus norvegicus with 9 samples.

Results

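The GABA-B receptor and the potassium channels it opens were followed in the thalamus through 7 genes. They were Gabbr1 and Gabbr2, which encode the receptor's subunits, Kctd12 and Kctd16, which encode auxiliary proteins bound to the receptor, and Kcnj3, Kcnj6 and Kcnj9, which encode channel subunits. Every probe set to which the platform annotation gives 1 of these symbols and no other was taken, and there were 18 such probe sets among the 31042 for rat genes, or 7 of 14217 genes. A probe set is a group of short probes on the array that is read as 1 expression value, and its identifier ends in "_a_at" where it is designed to match several transcripts of a gene.

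The rats were male, of the Wistar strain, and 3 weeks old at the start; the samples carry an age of 5 weeks. All of them first ate powdered feed for 2 days, and groups of similar mean weight then received either solid pellets (chow, 4 arrays) or the powder (5 arrays) for 8 days, under 12 h of light a day. Pellets have to be chewed, and the comparison asks whether chewing after weaning alters gene expression in the thalamus, GABA signalling included. The labels speak of 10 rats and do not tie each of the 9 arrays to an animal of its own, so p-values measure only the spread between these arrays, which may be technical.

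GABA-B receptors are G protein-coupled receptors that work only as a pair. The Gabbr1 protein binds GABA, and the Gabbr2 protein carries its partner to the cell surface and engages the G protein. The activated receptor releases the beta and gamma subunits of Gi and Go proteins, which open G protein-gated inwardly rectifying potassium (GIRK) channels and so hyperpolarise the cell, while the alpha subunit inhibits adenylyl cyclase. In the thalamus this gives the slow inhibition that neurons of the reticular nucleus exert on relay neurons, and it takes part in the rhythms of sleep.

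The stretch from 250 bases before to 50 bases after the annotated start is shown for Gabbr1, Gabbr2 and Kcnj6, because these are the genes with probe sets that varied between arrays and whose leading probe sets, those of highest mean, were low together on 1 chow array. The sequences are from RefSeq in build GRCr8, 5′ to 3′ on the strand of the gene, which is the minus strand for all of them, and 5 of the 7 genes had an entry. They lie at chr20:1499187-1499486 for Gabbr1, chr5:66083646-66083945 for Gabbr2 and chr11:47778299-47778598 for Kcnj6. Capitals mark matches on either strand to the GC box GGGCGG or to TGACG, the half-site of the cyclic AMP response element.
Gabbr1: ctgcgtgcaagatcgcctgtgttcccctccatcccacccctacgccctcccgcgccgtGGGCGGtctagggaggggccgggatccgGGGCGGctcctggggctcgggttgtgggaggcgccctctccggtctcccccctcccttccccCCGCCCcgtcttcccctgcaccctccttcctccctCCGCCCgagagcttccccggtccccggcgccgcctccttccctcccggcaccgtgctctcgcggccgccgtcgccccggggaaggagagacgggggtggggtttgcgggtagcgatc
Gabbr2: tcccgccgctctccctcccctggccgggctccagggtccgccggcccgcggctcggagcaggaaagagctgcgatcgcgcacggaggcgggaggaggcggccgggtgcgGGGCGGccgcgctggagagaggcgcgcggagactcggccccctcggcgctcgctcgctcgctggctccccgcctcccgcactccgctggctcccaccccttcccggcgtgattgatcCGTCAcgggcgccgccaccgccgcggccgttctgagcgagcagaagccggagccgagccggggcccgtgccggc
Kcnj6: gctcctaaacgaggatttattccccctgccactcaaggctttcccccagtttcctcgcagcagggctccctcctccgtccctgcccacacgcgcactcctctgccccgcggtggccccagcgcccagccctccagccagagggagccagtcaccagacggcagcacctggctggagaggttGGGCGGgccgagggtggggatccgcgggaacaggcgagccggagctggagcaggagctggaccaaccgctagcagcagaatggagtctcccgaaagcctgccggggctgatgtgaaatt
The GC box occurred 4 times in the Gabbr1 window and 1 time each in those of Gabbr2 and Kcnj6, and 33.1% of 33469 windows of the same length held it. The half-site occurred 1 time in the Gabbr2 window and not in the other two, against 21.2% of windows. The TATA box TATAAA was in none of these windows (14.2% of all windows), and no match overlapped another. G and C made up 75.0% of the Gabbr1 window, 78.7% of that of Gabbr2 and 66.7% of that of Kcnj6.

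Before the diets are compared, 2 features of the table bear on every value below. First, 84.4% of rat probe sets were nearly constant, with 9 log2 values that spanned less than 0.01. Among the receptor and channel genes this held for 11 of 18 probe sets, whose spans were 0.000236 to 0.00139 log2 units. They are called compressed here; a difference on them can pass a test and still have almost no size. The other 7 spanned 0.258 to 1.47 and belonged to Gabbr1 (4), Gabbr2 (2) and Kcnj6 (1). All probe sets of Kctd12, Kctd16, Kcnj3 and Kcnj9 were compressed, so these data give no usable size for a change in those 4 genes.

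Second, the array chow 1 stood apart. Over probe sets spanning at least 0.01 its mean correlation with the other arrays was 0.960, against 0.979 to 0.984 for the rest. Of 6 uncompressed striatal markers, all 6 were highest on chow 1. The summed linear level of the 7 measured striatal markers was 4072 there, against 1805 to 2129 on the other chow arrays and 1800.5 to 1993 on the powder arrays. Of 6 uncompressed markers of reticular nucleus neurons and interneurons, the GABA cells of the region, 5 were highest on chow 1. The other, Pvalb, was lowest there. The list of 7 summed to 6042 on chow 1, against 3925 to 4698 on the other chow and 3793 to 4712 on the powder arrays. Of 9 uncompressed markers of thalamic relay neurons, 7 were lowest on chow 1, and their list of 10 summed to 10569, against 13408.5 to 15111 on the other chow and 14105 to 15459 on the powder arrays. Hypothalamic markers varied widely on arrays of both diets. The 7 measured summed to 4962 on chow 1, 2465 to 5199 on the other chow and 1451 to 5343 on the powder arrays. Leaving out chow 1 does not remove this variation. The relay markers Slc17a6, the vesicular glutamate transporter, and Tcf7l2 were high in both groups (11.5 and 11.8 under chow, 11.7 and 12.1 under powder). Tnnt1, the lowest of the 10 listed relay markers, was at 6.88 under chow and 6.90 under powder. No value in the table is 0 and no detection calls were used, so neither presence nor absence of a marker could be judged. Over all 12 marker lists, 3 of 50 uncompressed markers were called between the diets, all lower under chow, where 9.03% of all 2414 uncompressed genes were called higher and 40.2% lower.

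**Figure D1:**
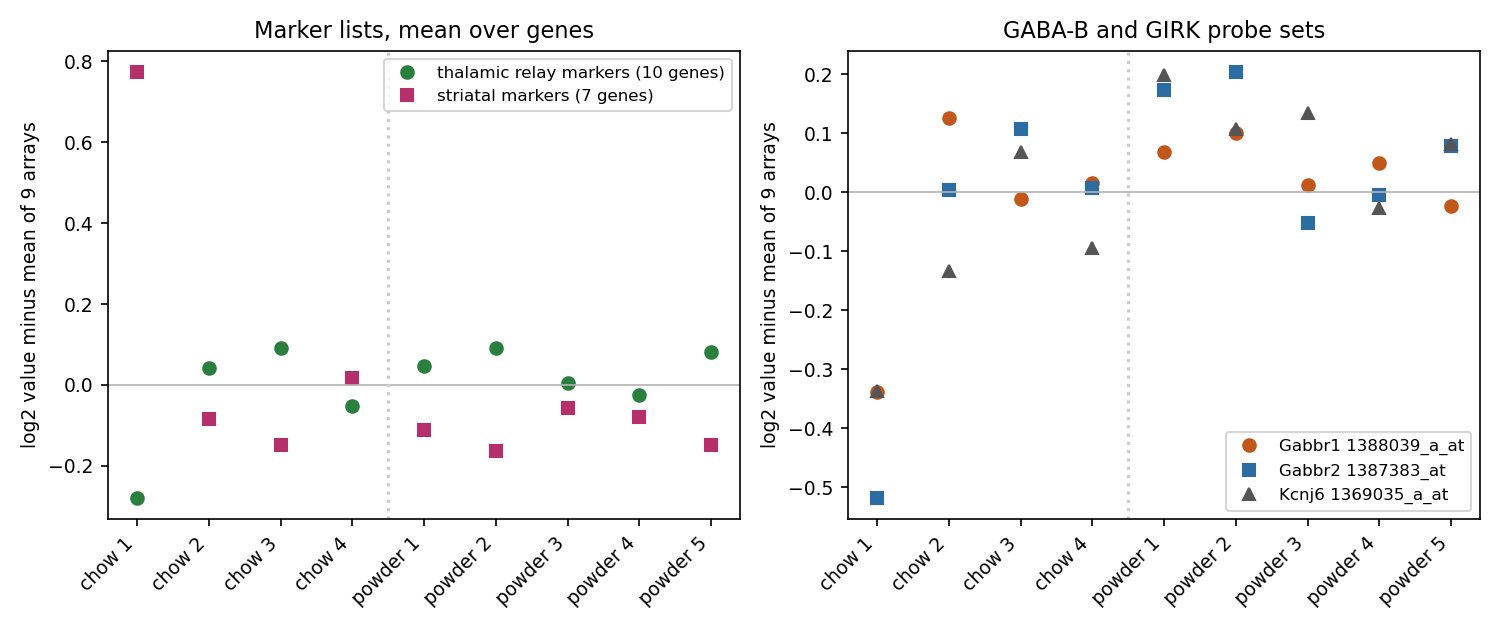
Log2 values on each array as the deviation from the mean of the 9 arrays (y axis), for the mean of 10 relay and 7 striatal marker genes (left) and for the leading probe sets of Gabbr1, Gabbr2 and Kcnj6 (right). Chow 1 has the highest striatal score, at 0.77, the lowest relay score, at -0.28, and the lowest value of all 3 receptor and channel probe sets.

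Chow 1 was also the extreme array for the receptor and channel genes. It was the lowest of the 9 arrays for 4 of the 7 uncompressed probe sets and the highest for 2, so that 6 of 7 had their extreme there, as did 57.3% of all 4849 uncompressed rat probe sets. In bulk tissue, fewer cells of a type and less RNA per cell cannot be told apart. The part of the marker difference in the receptor and channel values was not tested. For the 7 uncompressed probe sets the difference is therefore also given without this array, and other arrays are named where leaving one out moved a value by over 1.5 times.

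None of the 7 uncompressed probe sets differed between chow and powder in limma's moderated test after Benjamini-Hochberg adjustment over all 31042 probe sets (adjusted p from 0.0685 to 0.422), and 1 of 7 had an unadjusted p under 0.05. Among all uncompressed rat probe sets 54.9% were called, 16.1% higher and 38.8% lower under chow. The groups overlapped in all 7, whereas they did not overlap in 50% of all uncompressed probe sets. The median difference, chow minus powder, was 0.05 on the log2 scale over the 7 and -0.11 over all uncompressed probe sets. Read by gene, through the probe set of highest mean, the median had the other sign. It was -0.18 over the 3 uncompressed receptor and channel genes and -0.12 over all 2414 uncompressed genes. Over all 18 probe sets 3 were called, each higher under chow and each compressed, against 34.6% of all rat probe sets called, 17.9% higher and 16.7% lower. These 3 were of the 11 compressed ones, and of all compressed rat probe sets 30.9% were called, 18.2% higher and 12.7% lower. The same 3 were those whose groups did not overlap, which held for 29.9% of all rat probe sets. Without chow 1, 5 of the 18 were called, all higher and 1 of them uncompressed. Then 26.1% of all rat probe sets were called (12.3% higher, 13.9% lower) and 48.1% of uncompressed ones (12.9% higher, 35.2% lower). The 1 uncompressed call was Gabbr2 1368952_at, which spanned at least 0.01 on the chow arrays only.

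**Figure D2:**
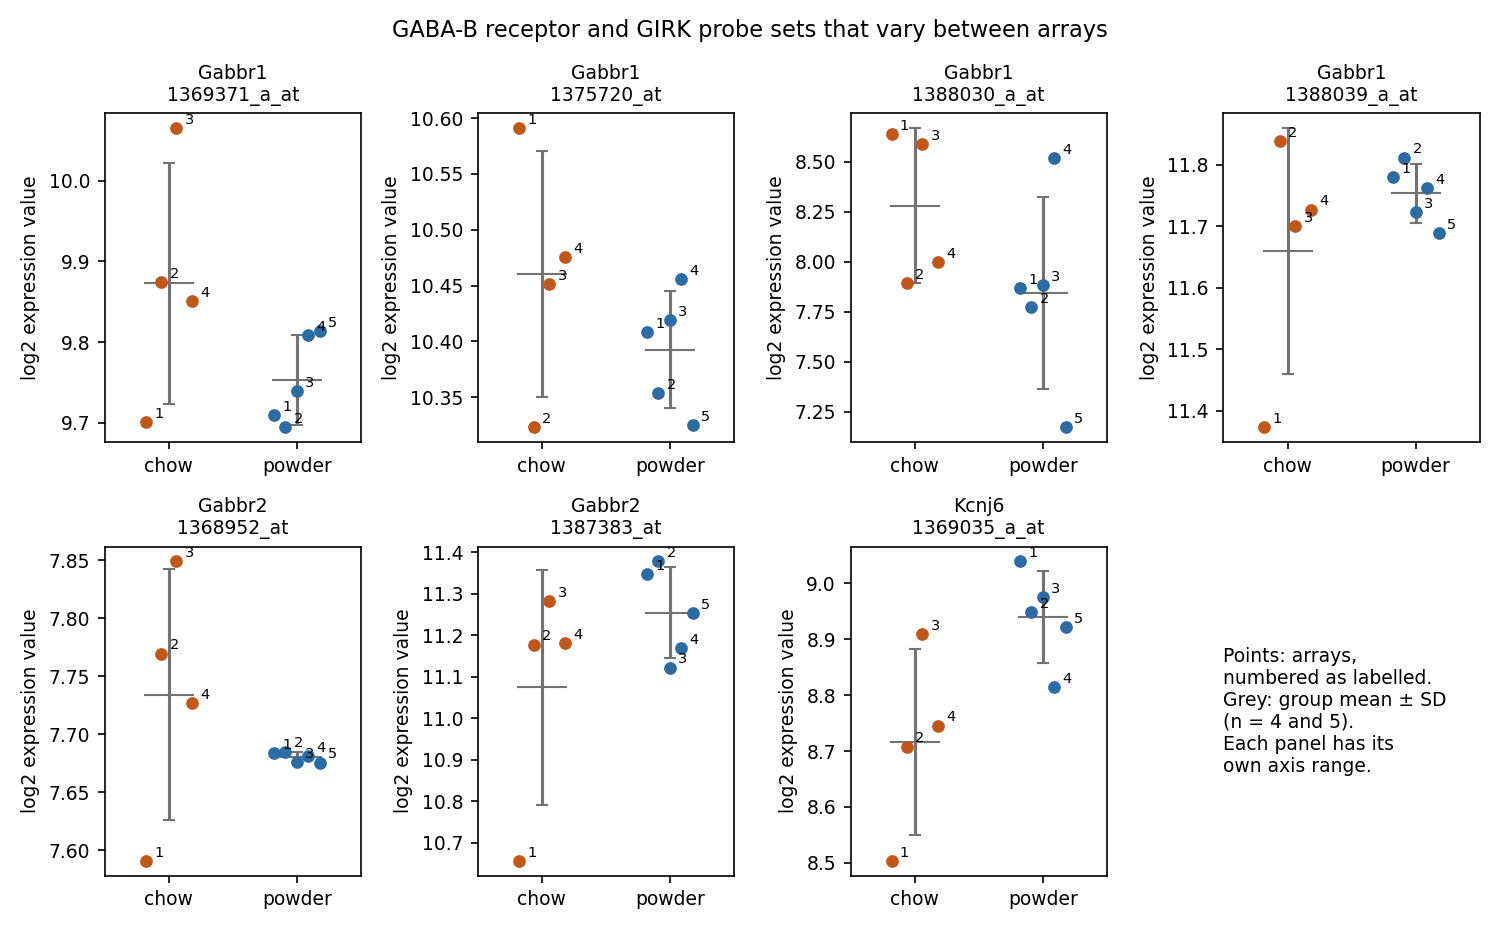
Log2 expression values (y axis, a range of its own in each panel) of the 7 uncompressed probe sets on the 4 chow and 5 powder arrays; points are arrays with their label number and grey bars are the mean ± SD. The groups overlap in every panel, and chow 1 is the lowest point in 4 panels and the highest in 2.

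Gabbr1, the GABA-binding subunit, was read by 5 probe sets, and the differences of the 4 uncompressed ones were of either sign. Probe set 1388039_a_at, that of highest mean, was at 11.37, 11.84, 11.70 and 11.73 on chow 1 to 4. On powder 1 to 5 it was at 11.78, 11.81, 11.72, 11.76 and 11.69. Chow 1 alone was low, and the other 3 chow arrays lay within or just above the powder range.

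The chow arrays averaged 11.66 with an SD of 0.19996 (n = 4) and the powder arrays 11.75 with an SD of 0.0480 (n = 5), a log2 difference of -0.09 with a 95% interval of -0.30 to 0.11 (limma, adjusted p = 0.422). Without chow 2 the difference was -0.15. Without chow 1 it was 0.0019, with an interval of -0.10 to 0.10. Because chow 1 was set aside for being extreme, this narrower interval does not bound a change between the diets. The interval with all arrays reaches -0.30.

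Probe set 1369371_a_at of Gabbr1 was at 9.70, 9.87, 10.07 and 9.85 under chow and 9.71, 9.69, 9.74, 9.81 and 9.81 under powder. Chow 2, 3 and 4 lay above every powder array and chow 1 lay among the lowest. Its difference was 0.12 ± 0.069 (SE, 95% interval -0.04 to 0.28, limma adjusted p = 0.206). Without chow 1 it was 0.18 ± 0.058, with an interval of 0.04 to 0.32, and was still not called (adjusted p = 0.0644). Without chow 3, the highest array, it was 0.055 (adjusted p = 0.410).

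Probe set 1375720_at of Gabbr1 was at 10.59, 10.32, 10.45 and 10.48 under chow and 10.41, 10.35, 10.42, 10.46 and 10.33 under powder. Here chow 1 was the highest array and chow 2 the lowest, and the difference was 0.07 ± 0.054 (95% interval -0.06 to 0.19, limma adjusted p = 0.338). Leaving out chow 1 lowered it to 0.02 (adjusted p = 0.699), and leaving out chow 2 raised it to 0.11 (adjusted p = 0.0920).

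Probe set 1388030_a_at of Gabbr1 varied most. It was at 8.64, 7.89, 8.59 and 7.999 under chow and 7.87, 7.77, 7.88, 8.52 and 7.17 under powder. Values near 8.6 occurred in both groups, on chow 1, chow 3 and powder 4. The difference of 0.44 ± 0.288, a 1.35-fold higher mean under chow, had an interval from -0.24 to 1.11 (limma adjusted p = 0.258), and this readout leaves the direction of Gabbr1 unsettled. The difference was 0.32 without chow 1, and ranged from 0.27 without powder 5 to 0.61 without powder 4, with no call in any of these.

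The fifth Gabbr1 probe set, 1369372_at, was compressed. It passed the test with a difference of 0.00036 (limma adjusted p = 0.00463), a 1.00025-fold difference, with every chow array above every powder array within a total span of 0.000583.

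Gabbr2, the subunit that couples to the G protein, had 2 uncompressed probe sets with differences of opposite sign. Probe set 1387383_at was at 10.66, 11.18, 11.28 and 11.18 under chow and 11.35, 11.38, 11.12, 11.17 and 11.25 under powder. Chow 1 was 0.521 below the next chow array, and the other 3 chow arrays lay inside the powder range. The means were 11.07 ± 0.283 and 11.25 ± 0.110 (SD, n = 4 and 5), a difference of -0.18 ± 0.132 (95% interval -0.49 to 0.13, limma adjusted p = 0.306). Without chow 1 the difference was -0.04, with an interval of -0.20 to 0.12.

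Probe set 1368952_at of Gabbr2 was at 7.59, 7.77, 7.85 and 7.73 under chow and at 7.68 on each of the 5 powder arrays. Chow 1 lay below the powder arrays and the other 3 chow arrays above them. The powder values spanned only 0.00946, which counts as compressed here, and the chow values 0.258. The probe set thus reached the limit of 0.01 only through the chow arrays. Such a pattern, with chow spanning at least 0.01 and powder less, occurred in 47 rat probe sets and the reverse in 21. The difference was 0.05 ± 0.046 (limma adjusted p = 0.377). Without chow 1 it was 0.10 ± 0.025, with an interval of 0.04 to 0.16, and was called higher under chow (limma adjusted p = 0.0327), where 12.9% of uncompressed rat probe sets were called higher. This call sets chow against powder values that count as compressed, so it is not read as a change in Gabbr2. Without chow 3, the highest array, the difference was 0.016 (adjusted p = 0.765), so its size depended on which of these arrays was kept.

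**Figure D3:**
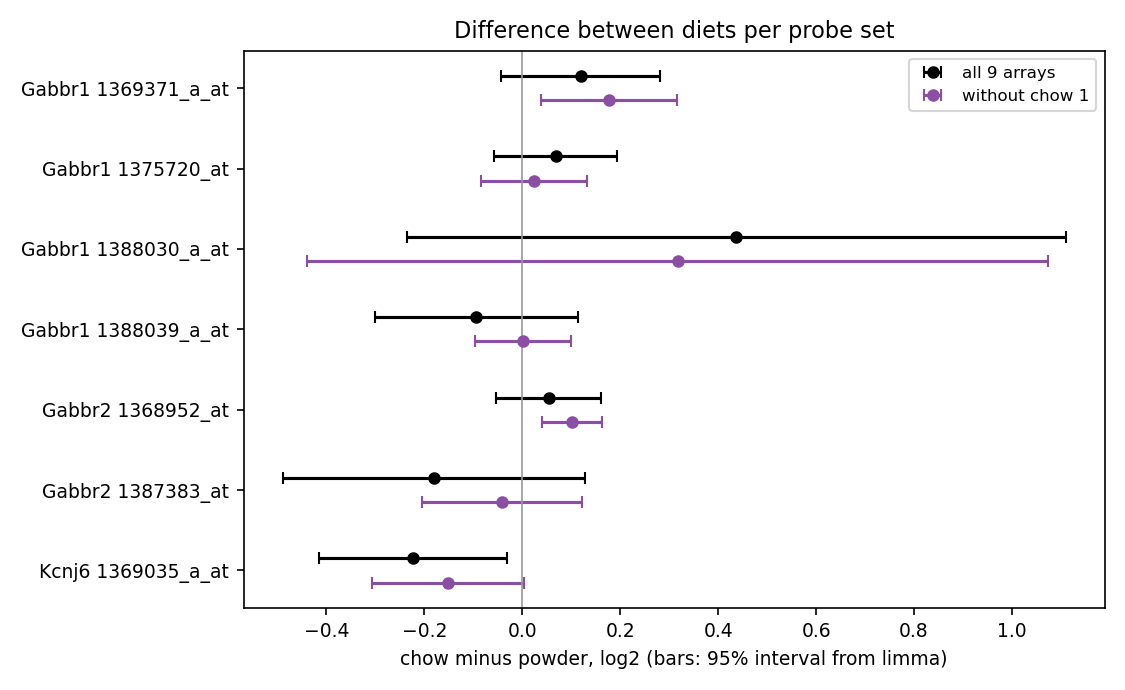
Chow minus powder difference (x axis, log2) of the 7 uncompressed probe sets with 95% intervals from limma, from all 9 arrays (black) and without chow 1 (purple). With all arrays the interval of Kcnj6 alone lies on 1 side of 0, at -0.41 to -0.03, and without chow 1 those of Gabbr1 1369371_a_at and Gabbr2 1368952_at do.

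Whether probe sets of 1 gene changed differently was tested on their difference within each array, by two-sided exact permutation of the arrays between the diets. There were 7 pairs, 6 in Gabbr1 and 1 in Gabbr2, and 0 passed after Benjamini-Hochberg adjustment. With so few arrays a single pair could not pass over 7 tests, however far apart its groups lay. The count therefore does not show that probe sets of 1 gene changed alike. The pair of Gabbr2 had the smallest p: 1387383_at changed by -0.23 relative to 1368952_at (exact permutation p = 0.0317, adjusted p = 0.222), and by -0.14 without chow 1 (exact permutation, adjusted p = 0.250). The widest shift in Gabbr1 was -0.53, for 1388039_a_at relative to 1388030_a_at (exact permutation p = 0.127, adjusted p = 0.222), and was -0.32 without chow 1.

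The balance of the receptor pair was read the same way from the leading probe sets. The Gabbr1 minus Gabbr2 difference within an array averaged 0.59 ± 0.132 on the 4 chow arrays and 0.50 ± 0.089 (SD) on the 5 powder arrays. This is a shift of 0.087 between the diets (exact permutation p = 0.317). A single arrangement of 4 against 5 arrays has a probability of 0.00794. The two-sided test doubles the smaller tail, so its smallest p is above that value. The shift was 0.043 without chow 1, 0.14 without chow 3, and 0.62 where each gene was read by its probe set of widest span. It was the only 1 of 5 planned gene pairs that could be computed, since the others included a gene with compressed probe sets only.

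The auxiliary proteins Kctd12 and Kctd16 bind the Gabbr2 tail and set how fast and how long the receptor responds; Kctd12 is known to desensitise it. Their 3 probe sets were all compressed. Kctd12 1382535_at passed the test with a difference of 0.00029 (limma adjusted p = 0.0107) and Kctd12 1373818_at did not, at -0.000057 (adjusted p = 0.452). The second of these turned to 0.0065 and 0.030 and was called higher when array medians were subtracted or arrays quantile normalized, shifts larger than its whole span of 0.000236. Kctd16 1390565_at differed by 0.00021 and was not called (adjusted p = 0.0685), but was without powder 4 (0.0497).

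Kcnj6 encodes GIRK2, the subunit that can form channels by itself. Its 1 uncompressed probe set, 1369035_a_at, was at 8.50, 8.71, 8.91 and 8.75 under chow and 9.04, 8.95, 8.97, 8.81 and 8.92 under powder. Chow 1, 2 and 4 lay below every powder array, and chow 3 lay above powder 4. The means were 8.72 ± 0.166 and 8.94 ± 0.083 (SD, n = 4 and 5). The difference of -0.22 ± 0.082, or 0.857-fold, had a 95% interval of -0.41 to -0.03 and an unadjusted p of 0.0277, but an adjusted p of 0.0685 in limma, and was not called.

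This result sat near the threshold and its call changed with single arrays and settings. Without chow 1 the difference was -0.15 ± 0.064 (limma adjusted p = 0.120), and without chow 3 it was -0.29 and was called (adjusted p = 0.0288). It was also called when array medians were subtracted (-0.22, adjusted p = 0.0298) and when compressed probe sets were left out of the fit (adjusted p = 0.0364). The direction was lower under chow in all of these.

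The other 3 Kcnj6 probe sets were compressed. Among them 1369034_at was called at 0.00023 (limma adjusted p = 0.0109), opposite in sign to 1369035_a_at and of no practical size. The other two differed by 0.00012 and 0.00033 and were not called.

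Kcnj3 and Kcnj9 encode GIRK1 and GIRK3, the partners with which GIRK2 forms mixed channels. The 3 Kcnj3 probe sets differed by -0.00020, 0.00017 and 0.00016 and the 1 of Kcnj9 by 0.00019, and none was called (limma adjusted p from 0.0653 to 0.535). Kcnj3 1369741_at was called without chow 1 (adjusted p = 0.0486). With Kcnj6 as the only channel gene that varied, the mix of channel subunits could not be compared between the diets.

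Spread was compared between the diets as a description, with no test. The SD was larger under chow than under powder in 6 of the 7 uncompressed probe sets, and in 73.1% of all such rat probe sets. Without chow 1 the counts were 5 of 7 and 55.4%. For Gabbr2 1368952_at the chow SD was 24.1 times the powder SD, and 13.8 times without chow 1. The median ratios over uncompressed rat probe sets were 1.497 and 1.099. The powder values of this probe set spanned less than the 0.01 used here to call values compressed.

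Of the 3 pairs among the leading probe sets of Gabbr1, Gabbr2 and Kcnj6, 2 passed the adjusted threshold by Pearson's r and 0 by Spearman's rho. The permutation moved values freely over all 9 arrays after group means were subtracted. Such values are tied to each other within a diet and spread more under chow, so these p-values are approximate. All 3 values of r were lower without chow 1. After group means were subtracted, Gabbr2 and Kcnj6 had Pearson r = 0.83 (exact permutation p = 0.00859, adjusted p = 0.0226 over 3 relations) and Spearman rho = 0.58 (exact permutation p = 0.108, adjusted p = 0.162) over 9 arrays. Without the 2 arrays of Gabbr2 farthest from its median, chow 1 and powder 3, r was 0.87, and without chow 1 alone it was 0.55. With 2 arrays left out, the group means still included chow 1. With chow 1 alone left out, they were taken anew. The 2 kinds of value are therefore not directly comparable, for this pair or those below. Gabbr1 and Gabbr2 had r = 0.86 (exact permutation p = 0.0150, adjusted p = 0.0226) and rho = 0.78 (exact permutation p = 0.0172, adjusted p = 0.0517). This r was 0.68 without chow 1 and chow 2 and 0.22 without chow 1, and so rests largely on that array. Gabbr1 and Kcnj6 had r = 0.60 (exact permutation p = 0.112) and rho = 0.40 (exact permutation p = 0.291), and r was 0.31 without chow 1 and chow 2 and -0.31 without chow 1.

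The genes whose deviations from the group means were most like those of each leading probe set over the 9 arrays were found among uncompressed probe sets of other genes, as a description with no test. For Gabbr1 they were Cbln1, Rflnb and Rassf3 (Pearson r from 0.978 to 0.986, and 0.851 to 0.932 without chow 1). For Gabbr2 they were Tpd52, Shisal1 and the relay neuron transcription factor Tcf7l2 (r = 0.987 for each, and 0.929 to 0.956 without chow 1). For Kcnj6 they were Leo1, the inward rectifier Kcnj12 and Purg (r from 0.980 to 0.982, and 0.956 to 0.975 without chow 1).

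Genes that act with the receptor were read from 9 lists, with 112 genes measured, each through its probe set of highest mean and with p adjusted over all genes. Of the 44 uncompressed ones, 7 were higher and 9 lower under chow, against 9.03% higher and 40.2% lower of all 2414 uncompressed genes. Of all uncompressed genes 49.3% were called. The pathway median difference was -0.07, against -0.12 over all such genes. Counting compressed probe sets too, 17 were higher and 17 lower of 112, against 14.2% and 18.8% of all genes (32.9% called in all). The 16 called uncompressed genes all kept their direction when the arrays were quantile normalized, when medians were subtracted and when any 1 array was left out. They were chosen for being called on these same arrays. For all but Pip5k1c the groups did not overlap, so leaving out 1 array could not have reversed the direction.

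**Figure D4:**
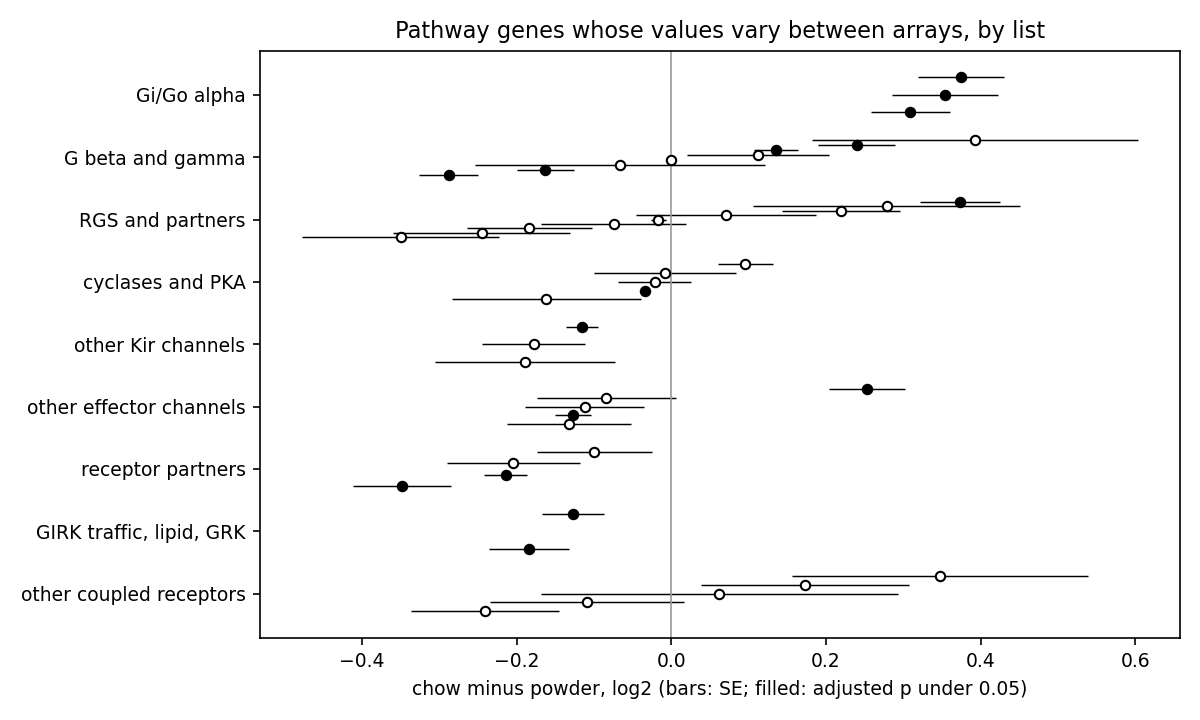
Chow minus powder difference (x axis, log2, with SE bars) of the uncompressed genes in each of the 9 lists; filled points were called at an adjusted p under 0.05. The 3 alpha subunits lie between 0.31 and 0.37, and the called receptor partners lie below 0.

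The alpha subunits of the inhibitory G proteins, which the receptor activates directly, were higher under chow. Gnao1, the alpha subunit of Go and abundant in neurons, was at 10.49, 10.48, 10.56 and 10.34 under chow and 10.05, 10.09, 10.07, 10.24 and 10.04 under powder. All chow arrays lay above all powder arrays. It rose by 0.37 ± 0.056 on the log2 scale (limma adjusted p = 0.00460).

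Gnai2 rose by 0.35 ± 0.069 (limma adjusted p = 0.0102) and Gnai1 by 0.31 ± 0.051 (adjusted p = 0.00655), both alpha subunits of Gi. For these genes too the groups did not overlap, and each was called without any 1 array. The groups did not overlap in 50% of all uncompressed probe sets, and 9.03% of all uncompressed genes were called higher. Without chow 1, which was highest for Gnai1 and Gnai2, the differences were 0.37 for Gnao1, 0.30 for Gnai2 and 0.27 for Gnai1. The fourth measured member, Gnaz, was compressed and called at -0.00029.

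**Figure D5:**
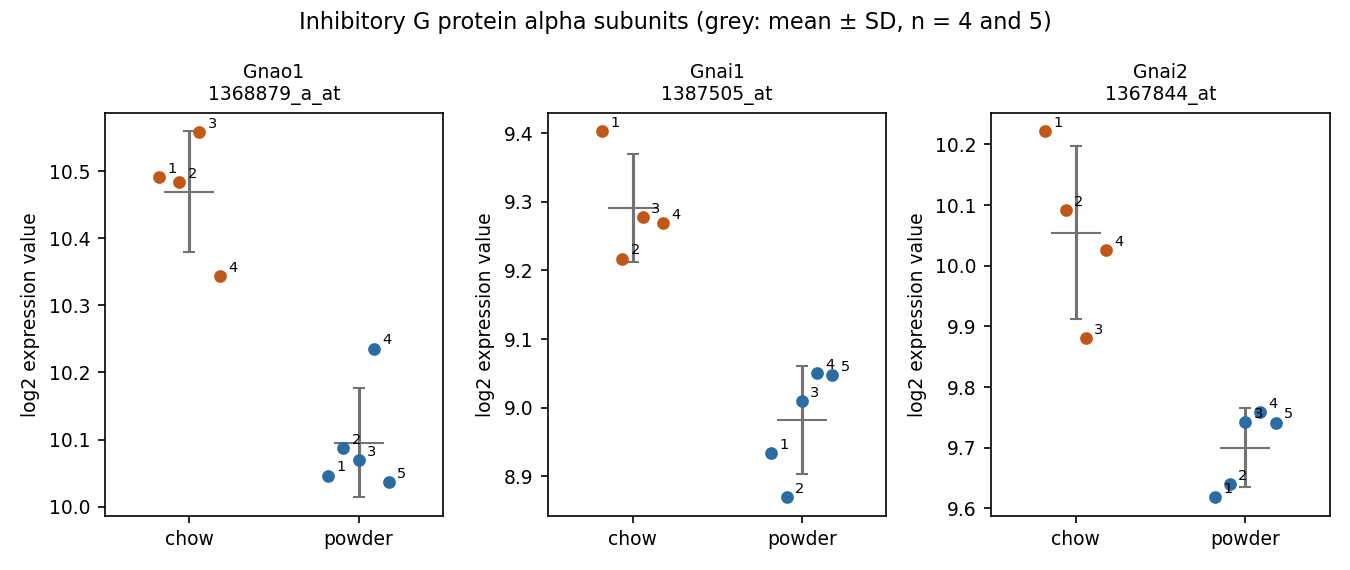
Log2 expression values (y axis, a range of its own in each panel) of Gnao1, Gnai1 and Gnai2 on the 4 chow and 5 powder arrays; points are arrays with their label number and grey bars the mean ± SD. Every chow array lies above every powder array in each panel.

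Beta and gamma subunits, which open GIRK channels, went both ways, with 2 higher and 2 lower of 8 uncompressed. Gnb4 (0.24 ± 0.050) and Gnb2 (0.14 ± 0.029) rose, and Gng12 (-0.29 ± 0.038) and Gnb1 (-0.16 ± 0.037) fell (limma adjusted p from 0.00344 to 0.0166). The probe sets of Gnb1 disagreed: 1375705_at was at -0.30 and 1367732_at at 0.20, both called.

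Among RGS proteins, which end G protein signals by speeding GTP hydrolysis, 1 of 9 uncompressed genes was called. This count was 1 higher and 0 lower with all arrays, 3 lower without chow 3, 2 higher without chow 4, and 2 higher and 1 lower under either other scaling. Rgs17 rose by 0.37 ± 0.052 (limma adjusted p = 0.00394), and its 3 other uncompressed probe sets were also higher, at 0.15, 0.09 and 0.07. Rgs7, which shortens GIRK responses, was at -0.18 ± 0.081 and was not called (adjusted p = 0.116). It was lowest on chow 1, and at -0.11 without it.

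Of 4 uncompressed genes for proteins that bind or modify the receptor, 2 were called and both were lower, where 40.2% of all uncompressed genes were called lower. Mpdz, a multi-PDZ scaffold that binds Gabbr2, fell by 0.35 on the log2 scale (-0.35 ± 0.063, limma adjusted p = 0.00840). Prkaa1, the catalytic subunit of AMP-activated kinase that phosphorylates Gabbr2, was at -0.21 ± 0.027 (adjusted p = 0.00319). Mpdz was lowest on chow 1 and was still called without it, at -0.29.

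Of 2 uncompressed genes listed for channel traffic and membrane lipid, both were called lower, as were 40.2% of all uncompressed genes. L1cam, an adhesion molecule, was at -0.18 ± 0.052 (limma adjusted p = 0.0326), and Pip5k1c, a kinase that makes the lipid PIP2 needed to open GIRK channels, at -0.13 ± 0.040 (adjusted p = 0.0453). Both were lowest on chow 1 and neither was called without it (adjusted p = 0.0716 and 0.0968). L1cam was also lost without chow 2, chow 4, powder 2, powder 4 or powder 5 (0.0527 to 0.0747), and Pip5k1c without chow 2, chow 4, powder 1, powder 2, powder 4 or powder 5 (0.0807 to 0.0932).

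Among 3 other uncompressed inward rectifiers, Kcnj11, the pore of the ATP-sensitive potassium channel, was called at -0.12 ± 0.021 (limma adjusted p = 0.00797). A further gene of that list was called lower without chow 2 or with medians subtracted. Among 5 uncompressed genes of other channels that the receptor inhibits or modulates, Cacna1b, the N-type calcium channel, fell (-0.13 ± 0.023, adjusted p = 0.00829) and Cacnb4, an auxiliary calcium channel subunit, rose (0.25 ± 0.049, adjusted p = 0.0104), and without chow 3 the list had 2 genes lower. Of 5 uncompressed genes of adenylyl cyclase and protein kinase A, 1 was called, Prkar1a, at -0.03 ± 0.006, which was lost after quantile normalization (adjusted p = 0.0895), while its probe set 1386905_at was called the other way at 0.17. Under either other scaling, and without powder 4, 1 gene of this list was higher.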

How the data were processed

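Thalamic RNA was measured on biotin-labelled arrays, 4 of chow-fed and 5 of powder-fed rats. The deposited table gives log2 values for 31099 probe sets. The sources used here do not give their background correction or normalization, and the log2 scale was read from the range of the values (5.37 to 14.0). Array medians were 7.39 to 7.40, and any centring is unknown. Precision is limited by the number of arrays.

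After 57 control probe sets were left out, lmFit and eBayes of limma 3.58.1 in R 4.3.3 compared chow with powder over 31042 probe sets and, with the probe set of highest mean for each, over 14217 genes; an adjusted p under 0.05 was called. In the platform annotation 20826 probe sets had 1 symbol, 436 several and 9780 none, and all 7 symbols studied were in RefSeq. The members, lists and the span limit of 0.01 were chosen with earlier results of these data known. The naming rule took every probe set of the 7 genes, up to 4 called uncompressed genes of each pathway list by size of difference, and the 3 most similar genes for each leading probe set; Rgs7 and Gnaz and further probe sets were named after their values were seen. Exact permutation tests used scipy 1.17.1. The limma step was tested on simulated data. Alternatives covered scaling, the variance model, array weights, a replicate block, dim and compressed probe sets, the threshold and each array left out. A check for pairing by label number found that 1 of 4 same-numbered pairs had deviations correlated above 0.1. This does not show a pairing and cannot exclude one.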

Additional observations from a re-analysis of the deposited data

Results flagged for a closer look

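Of 36 groups tested (18 probe sets in 2 diets), 1 had an array far from the others, and chance flags about 1 group in 20. Gabbr2 1387383_at was at 10.66 on chow 1, against 11.18 on the next lowest chow array, a gap of 0.833 of the group's range where 0.829 is the limit for 4 arrays. The striatal markers were highest and the relay markers lowest on the same array, and their part in this value was not tested.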

How the results depend on the processing

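Most values for single probe sets, genes and lists kept their direction and call: 532 under an alternative were unchanged, 16 gained and 19 lost a call, 23 list counts moved and 6 differences reversed. The scaling alternatives moved compressed probe sets by more than their span. After quantile normalization 15610 rat probe sets were higher and 1854 lower (8329 and 1000 genes), against 5558 and 5195 (2015 and 2669) on the deposited values, 7 of the 18 receptor and channel probe sets (3 genes) were higher, and pathway genes split 63 and 8. With medians subtracted the counts were 27206 and 2141 (12112 and 1133 genes), 11 higher and 1 lower of the 18 (4 and 1 genes), 1 lower of the 7 uncompressed ones, and 77 pathway genes higher. Kctd12 1373818_at reversed to 0.030 and 0.0065 in these settings, and Kcnj3 1369740_at to 0.0016 and 0.0064. With 1 array left out Kcnj3 1369740_at ranged from -0.00034 to 0.000035, reversing without chow 1, as did Gabbr1 1388039_a_at (0.0019).

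Leaving compressed probe sets out of the fit gave 865 higher and 2019 lower probe sets (245 and 1051 genes), with 0 higher and 1 lower receptor and channel probe set, Kcnj6 1369035_a_at (1 of the uncompressed and 1 gene). This fit tests fewer probe sets. Without the probe sets below the 20th percentile of mean, 1331 genes were higher. At an adjusted p under 0.1, 5 of the 18 were higher and 1 lower, 1 uncompressed probe set was lower, and 1 gene was higher and 1 lower.

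With 1 array left out, 3661 (without powder 1) to 4879 probe sets were higher and 3906 to 4843 lower, and 1352 to 1778 genes higher and 2015 to 2640 lower. Receptor and channel probe sets were called 3 to 5 higher (5 without chow 1) and 0 to 1 lower (1 without chow 3), the uncompressed ones 0 to 1 in each direction, and their genes 0 to 1 in each. Pathway genes were called 12 to 18 higher and 13 to 23 lower, and the uncompressed ones 7 to 8 higher and 7 to 14 lower (14 without chow 3). The pair of Gabbr1 probe sets 1375720_at and 1369371_a_at ranged from -0.15 to 0.016, reversing without chow 3.

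The replicate block gave 1 higher and 18 lower probe sets, 0 higher and 11 lower genes, and 0 of the 18 receptor and channel probe sets. No pairing by number was seen, since 0 of 4 chow arrays correlated best with the powder array of the same number. With 4 pairs this check cannot exclude one.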

Other observations

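Other receptors that open GIRK channels were also read. Of 14 measured, 4 were higher and 0 lower under chow, all 4 on compressed probe sets: the opioid receptors Oprm1 and Oprd1, the muscarinic receptor Chrm2 and the somatostatin receptor Sstr2. Over all genes 14.2% were higher and 18.8% lower. Of the 5 uncompressed ones 0 were called in limma and 1, Grm4, had an unadjusted p under 0.05, where 49.3% of uncompressed genes were called. In this list 1 was called lower without chow 3 or with medians subtracted. Drd2, the dopamine D2 receptor, was at 0.35 ± 0.191 (limma adjusted p = 0.190), the cannabinoid receptor Cnr1 at 0.06 ± 0.231 (adjusted p = 0.848) and the metabotropic glutamate receptor Grm4 at -0.24 ± 0.096 (adjusted p = 0.0894). Without chow 1 Drd2 was at 0.13, Cnr1 reversed to -0.14 and Grm4 was at -0.15, none of them called. Drd2, itself one of the striatal markers, and Cnr1, which striatal neurons also express, were highest on chow 1, where the striatal markers were highest, and Grm4 was lowest there; the part of the markers in these values was not tested.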
